A study of Mus musculus with 2 samples.

Results

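B cells were a small minority of the immune cells sorted from mouse pancreatic islets, and they were recognised here by the transcripts of their antigen receptor complex. A barcode was counted as a B cell when Cd79a, Cd79b and Ms4a1 summed to at least 2 unique molecular identifiers (UMIs, each standing for 1 captured transcript). It also had to hold fewer than 10 UMIs of the complement genes C1qa, C1qb and C1qc, which mark macrophages, and fewer than 2 UMIs of the T cell genes Cd3d, Cd3e and Cd3g. By this rule 54 of 3092 filtered barcodes were B cells, 26 of 1752 in the library labelled 12 weeks and 28 of 1340 in the library labelled 1 week. Cd79a and Cd79b encode the signalling chains of the B cell receptor (chr7:24897381-24902197 and chr11:106311341-106314762 on GRCm38), and Ms4a1 (chr19:11249675-11266241) encodes the surface protein CD20. These genes chose the cells, so their levels describe the choice and are no finding.

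The series concerns the antioxidant program of macrophages resident in islets. Both groups were chow-fed C57BL/6J males, with the islets of 6 to 8 mice pooled per library and no genetic change or treatment named in the labels. Cells negative for the dead-cell dye DAPI and for Epcam and positive for the leukocyte protein CD45 were sorted, and 3000 to 4000 cells were targeted per droplet library that counts transcript 3' ends. One library carried the time label 12 weeks and one the label 1 week. What is counted in weeks is not stated, and the titles number the libraries as replicates, so time label, pool and library cannot be told apart and no test was run between them.

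B cells carry a clonal antigen receptor made of immunoglobulin heavy and light chains, and they present antigen on MHC class II. Most B cells of spleen and lymph nodes are follicular cells, which recirculate and carry both IgM and IgD. B-1 cells are a self-renewing lineage of body cavities that carries much IgM and little IgD and supplies natural antibody, and plasma cells are the end stage that secretes immunoglobulin.

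B cells made up 1.48% of filtered barcodes at 12 weeks (95% Clopper-Pearson interval 0.972 to 2.17) and 2.09% at 1 week (1.39 to 3.01). The intervals overlapped, and they cover counting error only. The 26 B cells at 12 weeks held 102356 UMIs with a median of 3100.5 per cell, and the 28 at 1 week held 250136 with a median of 6040.5. Macrophages, taken as barcodes with a C1q sum of 10 or more, numbered 1602 and 1218 with medians of 6910 and 7484.5 UMIs. The T cell gate (Cd3 sum of at least 2, few C1q and B gene UMIs) held 30 barcodes at 12 weeks and 7 at 1 week. The median share of mitochondrial UMIs was 5.93% in B cells and 3.07% in macrophages at 12 weeks, and 4.30% and 3.37% at 1 week. Of the deposited barcodes 3 occurred in both libraries, and 0 were B cells in both.

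Most members lay far from the edges of the gate. The B gene sum was 5 or more in 24 of 26 members at 12 weeks and in 24 of 28 at 1 week, and it was exactly 2 in 0 and 1 members. Just outside, 2 barcodes in each library had a B gene sum of 1 and met the other limits. The C1q sum was 0 in 22 of 26 and 17 of 28 members, and its highest value among members was 3 at 12 weeks and 9 at 1 week. A further 3 barcodes at 12 weeks and 20 at 1 week had B gene UMIs together with a C1q sum of 10 or more. The 1-week ones had a median of 18412.5 UMIs, and their lowest C1q sum was 40. They stayed in the macrophage class, where they carried 5197 of the 5265 Igkc UMIs at 1 week. Whether these are 2 cells under 1 barcode was not tested.

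**Figure D1:**
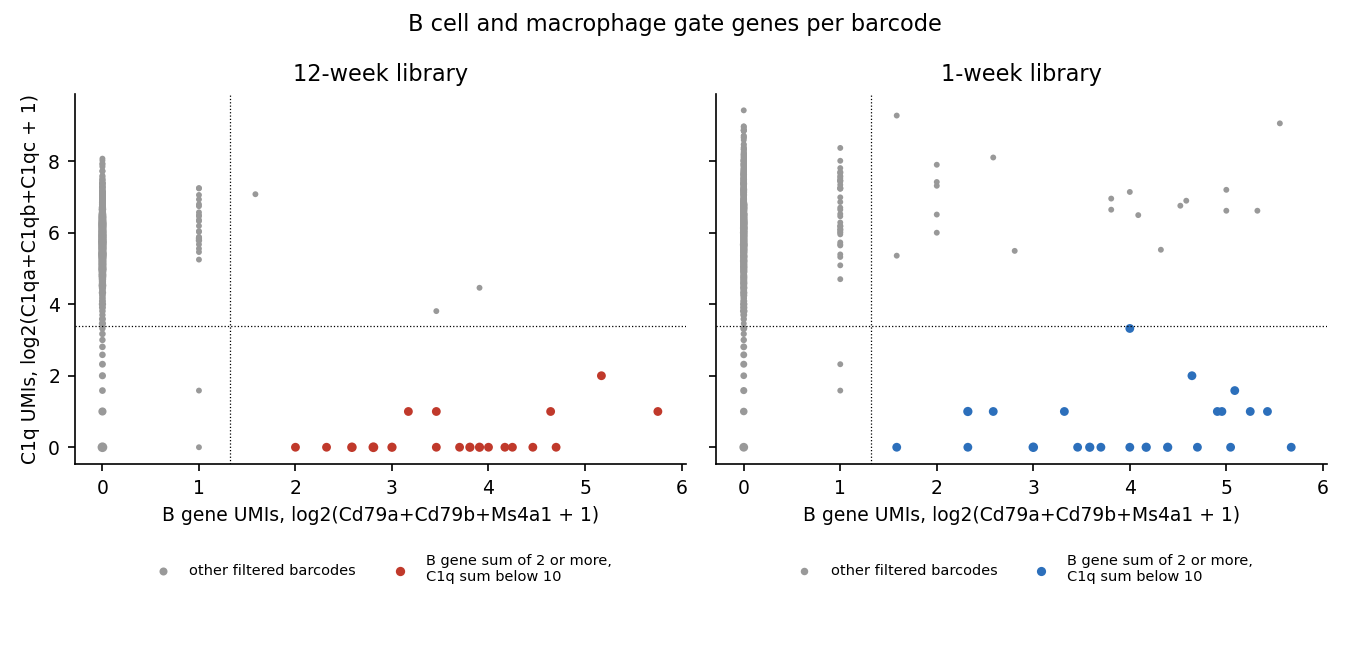
Each point is a filtered barcode or several barcodes at the same values, with the B gene sum on the x axis and the C1q sum on the y axis, both as log2(UMIs + 1), for the 12-week library (left) and the 1-week library (right). Dotted lines mark the gate. Coloured points at the bottom right are the B cells plus 1 barcode at 12 weeks that was left out for its Cd3 UMIs, and the upper right of the 1-week panel holds most of the 20 barcodes with both gene sets.

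Genes outside the gate matched the label in most members, while 4 members of the 1-week library stood apart from the rest. Ebf1, a transcription factor that commits progenitors to the B lineage, had UMIs in 22 of 26 members at 12 weeks and in 19 of 28 at 1 week. Igkc, the kappa light chain constant gene, had UMIs in 25 of 26 members at 12 weeks (median 15, highest 75) and in 26 of 28 at 1 week (median 17, highest 9613). The immunoglobulin constant genes took between 0.328% and 1.38% of UMIs in every 12-week member, with a median of 0.834%. At 1 week 24 members lay between 0.242% and 1.28%, and the other 4 stood apart. One of these held 38130 UMIs, of which 24262 (63.6%) were the insulin transcripts Ins1 and Ins2. It had 4 Cd79a UMIs, 1 Ighm UMI, 0 Igkc UMIs and 118 UMIs of the endocrine granule gene Chga, so its profile went against the label. The remaining 3 were rich in immunoglobulin and in Jchain. These 4 members held 90963 of the 250136 UMIs of the 1-week B cells, so they lower the 1-week level of every gene they lack, and values without them are given where they move a result.

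**Figure D2:**
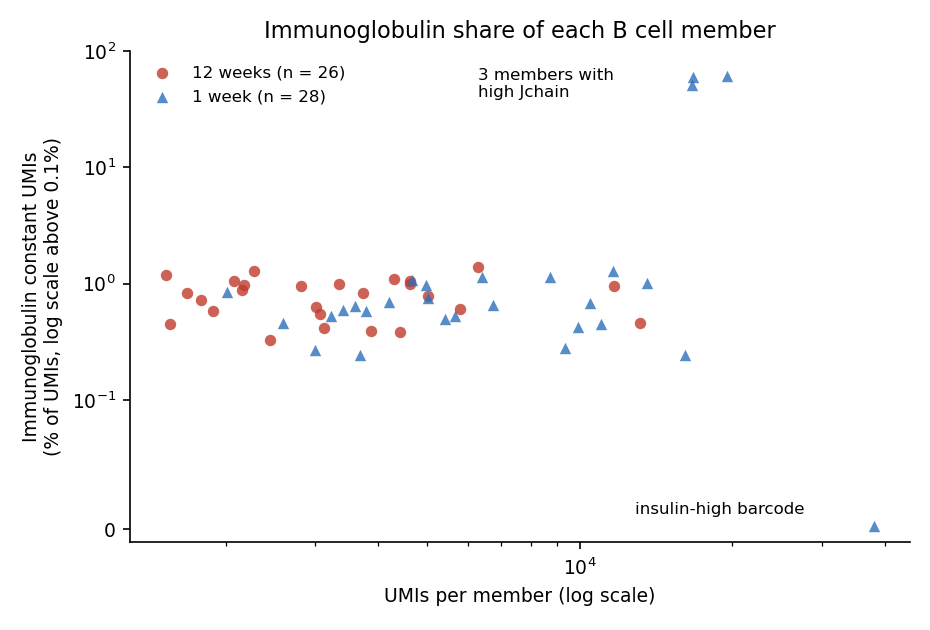
Each point is 1 B cell, with its UMIs on a log x axis and the share of its UMIs from immunoglobulin constant genes on the y axis, which is a log scale above 0.1% and linear below. All 26 members at 12 weeks and 24 of 28 at 1 week lie between 0.242% and 1.38%, while 3 members at 1 week lie above 50% and the insulin-high barcode lies near 0.

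The 3 immunoglobulin-rich members carried transcripts of the plasma cell program. Jchain, which encodes the chain that joins IgM into polymers, had 1037, 889 and 776 UMIs in them and 0 in each of the other 51 members. Their Igkc counts were 9613, 7886 and 7248 UMIs, and their Ighm counts, the IgM heavy chain, were 2194, 1930 and 1109. The constant genes made up 60.7%, 58.9% and 50.4% of their UMIs. Xbp1, a regulator of the secretory apparatus, had 13, 36 and 20 UMIs, and Mzb1, an endoplasmic reticulum protein that helps IgM assembly, had 64, 5 and 26. Of the 5 genes used to define plasma cells, Jchain, Xbp1 and Mzb1 were thus present in each of them, while Sdc1 and Prdm1 were at 0. Of the longer plasma cell list, Tnfrsf17, a survival receptor of plasma cells, had 1, 0 and 2 UMIs and Derl3 had 1, 0 and 0. The 12-week members held 0 Jchain UMIs, and 0 of 26 cells allows a share of cells with a Jchain UMI of up to 11.5%, taking 3 counts as the limit. In macrophages with a B gene sum below 2 a Jchain UMI was seen in 0 of 1599 barcodes at 12 weeks and in 7 of 1198 at 1 week.

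Variable genes were read in fewer members than constant genes. The 12-week members held 20 UMIs of heavy and light chain variable genes, spread over 12 cells and never above 3 per gene and cell. The 1-week members held 287, in 10 cells, of which the 3 Jchain-high members held the most. The member with 1037 Jchain UMIs had 57 UMIs of Ighv11-2 and 65 of Igkv14-126. The member with 776 had 13 of Ighv11-2 and 23 of Igkv14-126, so both showed the same heavy and light chain genes. The member with 889 had 24 of Ighv1-55 and 44 of Igkv12-89. The pairing of Ighv11 with Igkv14-126 is known from mouse B-1a cells whose receptors bind phosphatidylcholine. Among the other members, 1 had 2 UMIs of Igkv14-126 and 1 had a single UMI of Ighv11-2, both at 1 week. The member with 1037 Jchain UMIs also held 40 UMIs of Iglv1, a lambda variable gene, and 17 of the 21 Il10 UMIs of all members. The germline second exons of the shared pair are printed here because they name the receptor genes of these cells. The heavy chain exon lies at chr12:114048241-114048540 on the minus strand (300 of its 307 coding bases), and the light chain exon at chr6:67896345-67896642 on the plus strand (298 bases). They are reference sequence from GENCODE vM21 on GRCm38 (the assembly that mm10 names), not sequence read from the cells. Capitals mark bases that differ from the most similar variable gene, which is Ighv11-1 for the heavy chain (98.7% identity) and Igkv14-111 for the light chain (90.9%). Neither had a UMI in any member.
Ighv11-2: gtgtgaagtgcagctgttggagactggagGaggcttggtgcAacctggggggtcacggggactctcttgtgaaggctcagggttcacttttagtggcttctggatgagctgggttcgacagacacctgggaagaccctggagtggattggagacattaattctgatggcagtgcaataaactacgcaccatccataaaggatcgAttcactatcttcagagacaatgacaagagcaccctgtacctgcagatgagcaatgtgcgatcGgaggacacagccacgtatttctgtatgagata
Igkv14-126: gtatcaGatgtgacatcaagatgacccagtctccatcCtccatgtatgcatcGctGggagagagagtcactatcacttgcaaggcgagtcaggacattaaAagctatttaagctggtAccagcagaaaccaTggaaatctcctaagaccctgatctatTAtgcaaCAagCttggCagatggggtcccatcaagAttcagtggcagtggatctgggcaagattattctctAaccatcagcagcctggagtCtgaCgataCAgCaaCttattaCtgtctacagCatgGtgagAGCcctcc

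Most members had the isotype of unswitched B cells. Ighm had UMIs in 25 of 26 members at 12 weeks and in 24 of 28 at 1 week, or in 20 of 24 without the 4 outlying members. Ighm was also seen in 31.7% of macrophages at 12 weeks and in 38.6% at 1 week, with median depths of 6910 and 7484.5 UMIs, so a single Ighm UMI did not mark a B cell. Igkc was seen in 0.624% and 6.24% of macrophages. Macrophages with a B gene sum below 2 held 699 Ighm and 8 Igkc UMIs at 12 weeks and 720 and 68 at 1 week, while the B cells held 194 Ighm and 462 Igkc UMIs at 12 weeks. Ighm thus exceeded Igkc in these macrophages, and Igkc exceeded Ighm in the 12-week B cells. Switched isotypes were rare, with a single 1-week member that held 7 Ighg2b UMIs and 0 Ighm UMIs, 1 Ighg3 UMI in each of 2 members at 12 weeks, and 1 Igha UMI in each of 4 members at 1 week. Ighg1, Ighg2c and Ighe had 0 UMIs.

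Ighd, the IgD heavy chain of mature follicular cells, was one of the genes with the largest ratio between the labels. It had 33 UMIs in 16 of 26 members at 12 weeks and 14 UMIs in 10 of 28 at 1 week. Without the 4 outlying members the summed level was 322 counts per 1000000 UMIs (CPM) at 12 weeks (95% Poisson interval 222 to 453) and 88.0 at 1 week (48.1 to 148), and the intervals did not overlap. Ighd made up 14.5% of Ighm plus Ighd UMIs at 12 weeks (10.2 to 19.8) and 4.91% at 1 week (2.71 to 8.10). Thinned to 1000 UMIs per cell, 8 of 26 and 5 of 28 members kept an Ighd UMI. In macrophages 0.312% and 1.23% of barcodes had one. These intervals cover counting error only, and 1 library per label gives no measure of the spread between pools.

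Most members were dominated by kappa and a few by lambda light chains. Of the members with at least 5 light chain UMIs, lambda genes (Iglc1, Iglc2 and Iglc3) held over 50% of light chain UMIs in 4 of 25 at 12 weeks and in 3 of 27 at 1 week, and kappa held over 50% in the other 21 and 24. The clearest lambda cells had 0 Igkc with 26 lambda UMIs and 2 Igkc with 36 lambda UMIs, both at 1 week. Another 1-week member held 29 Igkc and 52 lambda UMIs. It also had 1 UMI each of the heavy chain variable genes Ighv9-4 and Ighv12-3, and whether it was 1 cell was not tested. UMIs of both light chain kinds were common. A lambda UMI was seen in 23 of 26 members at 12 weeks and 23 of 28 at 1 week, and an Igkc UMI in 25 and 26.

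**Figure D3:**
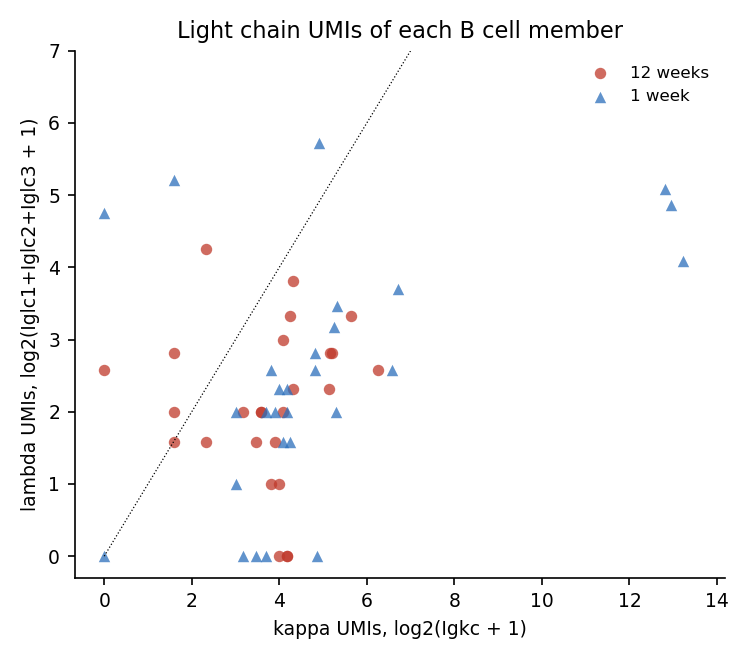
Each point is 1 B cell, with Igkc UMIs on the x axis and summed lambda constant UMIs on the y axis, both as log2(UMIs + 1), and the dotted line marks equal counts. Points above the line are the lambda cells of both libraries, and the 3 points at the far right are the Jchain-high members with 7248 to 9613 Igkc UMIs.

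The B cells were set against macrophages of the same libraries with UMIs summed per library and class, and edgeR's quasi-likelihood test with Benjamini-Hochberg adjustment called 280 of 2938 tested genes higher in B cells (9.53%) and 603 lower (20.5%). Without the 4 outlying members 320 of 2532 were higher (12.6%) and 611 lower (24.1%), and 240 of the 280 and 530 of the 603 were among them. DESeq2 called 159 higher (5.41%) and 492 lower (16.7%). Classes were defined from the same cells, and with 1 pool per label the p-values measure only how far class differences varied between these 2 libraries. The T cell profiles entered the same fit and its estimate of that spread. At 1 week the T cell profile held 7 barcodes and 22501 UMIs. In summed counts fewer transcripts per cell and fewer expressing cells cannot be told apart. The 9 gate genes were left out of the calls. The median log2 fold change of all tested genes was -0.03, and -0.17 with DESeq2 size factors, a shift that applies to every fold change below.

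Among called genes with at least 20 UMIs in the B cells of each library, the 12 with the highest fold change were Ebf1, Igkc, Iglc3, Ly6d, Bank1, Fcmr, Mzb1, Fcrla, Iglc2, Scd1, Ly6a and Cd2. Igkc had 4514 CPM at 12 weeks and 101301 at 1 week in B cells, or 3719 at 1 week without the outlying members, against 14.1 and 475 CPM in macrophages. It was higher by 7.97 on the log2 scale (SE 0.46, adjusted p = 8.52e-06, edgeR), and by 5.36 without the outlying members (SE 1.11, adjusted p = 0.0022). Barcodes with both B genes and C1q genes stayed in the macrophage class in both fits. They held 153 of its 161 Igkc UMIs at 12 weeks and 5197 of 5265 at 1 week. The outlying members were left out of the B cells only. No fit was run without the barcodes with both gene sets, for Igkc or any other B cell gene. All 6 of the 13 listed immunoglobulin constant genes that could be tested were higher, with a median log2 fold change of 6.84 beside -0.03 for all genes, and all 6 were higher with a median of 5.94 without the outlying members. Mzb1 was 6.94 higher (SE 0.51), or 6.17 without these members (SE 0.56). Iglc3 stood at 303 and 348 CPM in B cells against 0.527 and 3.07 in macrophages (7.59, SE 0.49), and Iglc2 was 6.68 higher (SE 1.02) on the log2 scale. Iglc2 and Iglc3 are near-identical, so reads between them may be split either way.

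Of 22 genes for the B cell antigen receptor and its co-receptors, 16 were tested, of which 6 were higher, 2 were lower and 8 did not pass, with a median log2 fold change of 0.01. The higher ones included Blk, Bank1, Cd37, Fcrla and Siglecg. Blk, a Src family kinase of the receptor, had 147 and 64.0 CPM in B cells against 0.176 and 1.17 in macrophages, 7.12 higher on the log2 scale (SE 0.82, adjusted p = 0.000112, edgeR). Bank1, a scaffold protein of receptor signalling, had 195 and 112 CPM against 0.176 and 2.17, 7.09 higher (SE 0.79). Fcrla, an Fc receptor-like protein of B cells, had 225 and 88.0 CPM against 0.263 and 2.35, 6.85 higher (SE 0.83). The 2 lower genes were Cd72, an inhibitory co-receptor (58.6 and 48.0 CPM against 292 and 390), and Cd81, a tetraspanin of the co-receptor complex (97.7 and 208 CPM against 977 and 1051). Syk, Lyn, Plcg2, Prkcb and Blnk, which carry the receptor signal onward and are not restricted to B cells, did not pass the test.

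B lineage transcription factors were higher in 7 of 13 tested and lower in 0, with a median log2 fold change of 1.47. Ebf1 had the highest fold change of the genes named here, at 528 and 248 CPM in B cells against 0.0878 and 2.62 in macrophages (8.12, SE 0.76, edgeR adjusted p = 6.59e-05). Pou2af1, a coactivator of immunoglobulin transcription, had 166 and 95.9 CPM against 0.0878 and 1.35 (7.46, SE 0.81). The smallest called differences were in Bach2, a repressor of plasma cell fate, at 1.35 (SE 0.46, edgeR adjusted p = 0.0459), and in Foxp1 at 1.91 (SE 0.47, edgeR adjusted p = 0.00907). Neither passed with DESeq2 (adjusted p = 0.131 and 0.0768). Pax5, the factor that maintains B cell identity, and Spib had 9 and 12 UMIs at 12 weeks and 11 and 7 at 1 week and fell below the count filter. Without the 4 outlying members 12 of 15 tested factors were higher.

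Receptors for survival factors and homing were higher in 9 of 17 tested and lower in 1, with a median of 2.11. Tnfrsf13c, the receptor for the survival factor BAFF, had 166 and 120 CPM in B cells against 0.263 and 0.992 in macrophages (7.73, SE 0.66, edgeR adjusted p = 3.50e-05). Cxcr5, which guides cells to follicles, had 58.6 and 72.0 CPM against 0 and 0.632 (7.65, SE 0.94), from 6 and 18 UMIs, and it fell below the count filter without the 4 outlying members. Fcmr, the receptor for IgM, had 371 and 148 CPM against 0.176 and 3.52 (7.09, SE 0.78). Itga4, an integrin subunit for entry into tissue, was 2.11 higher (SE 0.40). The gene that was lower was Il4ra, the interleukin 4 receptor, with 2 and 5 UMIs in B cells against 829 and 756 in macrophages (-1.80, SE 0.51, edgeR adjusted p = 0.0204). A further 3 of the 12 genes stood outside the lists, namely Ly6d at 1172 and 1255 CPM (7.43, SE 0.63), Scd1, a fatty acid desaturase, at 332 and 128 (6.66, SE 0.60) and Ly6a at 635 and 612 (6.30, SE 0.45).

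Antigen presentation genes were called in both directions. Of 11 tested MHC class II genes and chaperones 3 were higher in B cells, 4 were lower and 4 did not pass, with a median of -1.95. H2-DMb2 had 234 and 95.9 CPM in B cells against 6.32 and 9.56 in macrophages (4.18, SE 0.47, edgeR adjusted p = 0.000108). H2-Ob and H2-Oa, which encode the H2-O modulator of peptide loading that B cells are known to carry, were also higher, H2-Ob by 2.05 (SE 0.44). The class II chain H2-Eb1 was lower, at 2892 and 1907 CPM against 12500 and 12944 (-2.52, SE 0.71, adjusted p = 0.019), as was the protease Ctss, at 283 and 260 CPM against 3975 and 3487 (-3.79, SE 0.50). H2-Aa and H2-DMb1 were the other lower genes, and H2-Ab1 and Cd74 did not pass. H2-DMb1 and H2-DMb2 are near-identical neighbours, so their counts may share reads.

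**Figure D4:**
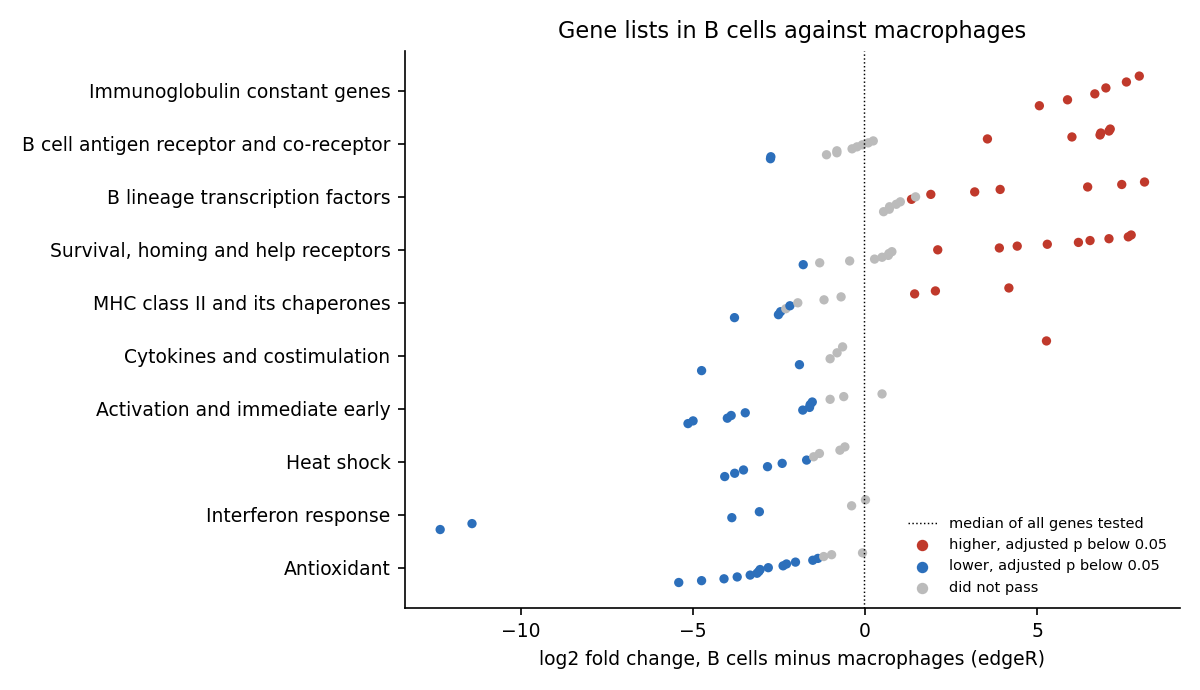
Each point is a tested gene of a list, with its log2 fold change for B cells minus macrophages on the x axis, red where higher, blue where lower and grey where it did not pass, and the dotted line is the median of all 2938 tested genes. Immunoglobulin genes and lineage factors lie to the right, and activation, heat shock, interferon and antioxidant genes lie mostly to the left; the 2 leftmost points had 0 UMIs in B cells, so their fitted values are no bound.

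Stress, activation and antioxidant genes were lower in B cells or did not pass, and 0 of them were higher. Of 17 tested antioxidant genes 14 were lower, with a median of -2.81. Hmox1, the heme oxygenase, had 19.5 and 80.0 CPM in B cells against 3746 and 1861 in macrophages (-5.41, SE 0.82, edgeR adjusted p = 0.000573). Srxn1, which repairs oxidised peroxiredoxins, had 0 and 16.0 CPM against 467 and 221 (-4.75, SE 0.69). The smallest called differences were in Txn1 (-1.52, SE 0.47) and Gpx1 (-1.37, SE 0.40). Gclc, Gpx4 and Sod1 did not pass.

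Of 12 tested activation and immediate early genes 9 were lower, among them Fos at 0 and 12.0 CPM against 308 and 231 (-5.00, SE 0.80) and Fosb with 0 and 1 UMIs in B cells (-5.14, SE 0.80). Cd69, Cd83 and Ier2 did not pass. Of 10 heat shock genes 6 were lower. The inducible chaperone Hspa1a had 9.77 and 260 CPM in B cells against 2680 and 1623 in macrophages, and 51 of its 65 UMIs at 1 week lay in 1 member. Of 6 tested interferon response genes 4 were lower, and Rsad2 and Ifit1 had 0 UMIs in B cells; Rsad2 did not pass with DESeq2 (adjusted p = 0.271). The median was -3.47, or -3.27 with these 2 genes at their bound. Tnf was 4.75 lower (SE 0.62) on the log2 scale and the costimulator Cd86 1.91 lower (SE 0.41), while Ltb, the lymphotoxin chain of lymphocytes, was 5.27 higher (SE 0.41), at 264 and 136 CPM against 5.18 and 4.15.

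The 8 genes at the low end of the comparison had 0 UMIs in B cells. Against a floor of 3 UMIs over the B cells of both libraries, Bcl2a1a was at least 35.7-fold lower in B cells, the collagenase Mmp13 at least 28.3-fold, the adhesion gene Cadm1 24.6-fold and the lectin Clec4d 24.4-fold. The lipid receptor Trem2 was at least 24.0-fold lower, the metal transporter Slc11a1 22.6-fold, Rsad2 21.5-fold and the complement receptor C5ar1 20.5-fold. All 10 tested macrophage markers outside the gate were lower, with a median of -5.44. Their 11 genes summed to 1563 CPM at 12 weeks and 896 at 1 week in B cells, against 40980 and 38992 in macrophages. Mrc1 had 0 UMIs in the B cells of both libraries, and 6 of 11 markers had 0 at 12 weeks. Apoe, which was present in nearly every macrophage, gave 139 of the 160 marker UMIs at 12 weeks and 121 of 224 at 1 week. The 10 T cell markers summed to 234 and 260 CPM in B cells against 3398 and 4178 in T cells, and Cd2 gave 21 of 24 and 56 of 65 of these UMIs. Endocrine and exocrine transcripts summed to 1006 CPM at 12 weeks and 103508 at 1 week in B cells, or 1878 at 1 week without the outlying members, against 5779 and 3832 in macrophages. At 12 weeks 1 barcode held 33276 of the 47557 Ins2 UMIs of macrophages. Insulin-high barcodes were left out of the B cells only, so typical macrophages cannot be read from these sums. Natural killer and innate lymphoid markers summed to 0 and 9 UMIs in B cells, and dendritic cell markers to 1 and 5. The part of RNA from other cells in these values was not tested.

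**Figure D5:**
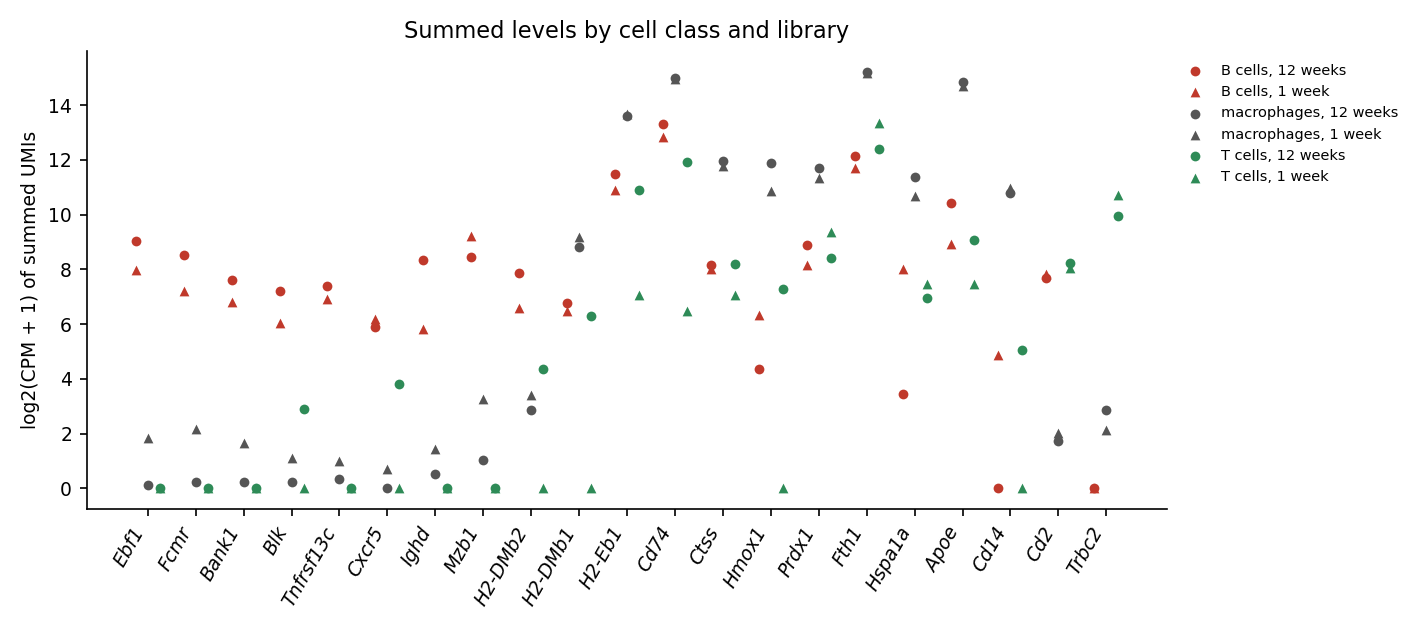
Summed levels as log2(CPM + 1) for B cells (left in each group), macrophages (middle) and T cells (right), with circles for the 12-week and triangles for the 1-week library. Lineage genes from Ebf1 to Mzb1 stand higher in B cells than in both other classes, though Blk and Bank1 did not pass the test against T cells with all members. Hmox1, Prdx1, Fth1 and Cd14 are higher in macrophages. The 1-week T cell points rest on 7 barcodes.

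Against T cells of the same sort, a comparison that rests on 7 T cell barcodes and 22501 UMIs at 1 week, 27 genes were higher in B cells (0.919%) and 63 lower (2.14%) by the same edgeR test. Without the 4 outlying members 41 were higher (1.62%) and 87 lower (3.44%), and DESeq2 called 32 higher (1.09%) and 89 lower (3.03%). The 6 that led were Igkc, Ly6d, Iglc2, Mzb1, Iglc3 and Ebf1, all at 0 UMIs in T cells. Over a floor of 3 UMIs in the T cells of both libraries, Igkc was at least 4290-fold higher, Ly6d 72.2-fold, Iglc2 37.7-fold, Mzb1 30.4-fold, Iglc3 19.6-fold and Ebf1 19.3-fold. With these 4 members left out the bounds were 236-fold for Igkc, 78.0-fold for Ly6d, 42.4-fold for Iglc2, 19.7-fold for Mzb1, 20.8-fold for Iglc3 and 26.0-fold for Ebf1. Most tested B lineage genes were not called against T cells. With all members 4 of 6 immunoglobulin constant, 1 of 16 antigen receptor, 4 of 13 lineage factor and 0 of 6 follicular genes were higher. Without the 4 outlying members these were 5 of 6, 5 of 15, 4 of 15 and 2 of 5. Of the T cell markers 7 of 8 tested were lower in B cells. Trbc2 had 0 CPM in B cells against 998 and 1689 in T cells, at least 128-fold lower, and Trbc1, a near-identical copy whose reads may be shared, was at least 93.5-fold lower. The chemokine gene Ccl5 had 9.77 and 28.0 CPM against 2172 and 8000 (-7.20, SE 0.68, edgeR adjusted p = 0.000378). Cd2 was the marker that did not differ by the test, at 205 and 224 CPM in B cells and 300 and 267 in T cells (log2 -0.08, SE 0.42), and it stood above macrophages by 6.30 (SE 0.42). No antioxidant, heat shock, interferon or macrophage marker gene passed the test between B and T cells in the comparison with all members or with DESeq2. Hspb1, a small heat shock protein gene (4.75, SE 1.24), and Apoe (1.66, SE 0.43) were higher in B cells without the 4 outlying members (edgeR adjusted p = 0.0429 for both), and both were also called with DESeq2 size factors (4.71 and 1.62, edgeR adjusted p = 0.0464 and 0.0276).

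Within the members, 2 states were read from genes of follicular and B-1 cells. Members with a UMI of Fcer2a, the IgE receptor CD23 of follicular cells, numbered 5 of 26 at 12 weeks (19.2%, 95% Clopper-Pearson interval 6.55 to 39.4) and 1 of 28 at 1 week (3.57%, 0.0904 to 18.3). Members without Fcer2a and with a UMI of Zbtb32, Cd5, Spn, Ctla4, Zcwpw1 or Sox5 numbered 4 (15.4%, 4.36 to 34.9) and 13 (46.4%, 27.5 to 66.1), and 17 and 14 had neither. Without the 4 outlying members the B-1 gene state held 12 of 24 at 1 week. Depth moved with these states. At 1 week the members with B-1 genes had a median of 8728 UMIs, against 5215.5 for those with neither, and at 12 weeks 5411 against 2810. Thinned to 1000 UMIs per cell, 1 member at 12 weeks and 1 at 1 week held Fcer2a, and 2 and 5 fell in the B-1 gene state. A state set by 1 UMI is a range and not a cell type, and no difference between the labels was tested.

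Of the genes that set the B-1 gene state, Zcwpw1 had 9 UMIs in a single 12-week member and 12, 4, 4 and 2 UMIs in 4 members at 1 week, against 0.999% and 2.55% of macrophages with any UMI. It was 5.07 higher in B cells than in macrophages on the log2 scale (SE 0.59, edgeR adjusted p = 0.000122), at 87.9 and 88.0 CPM against 1.84 and 3.25. Sox5, a transcription factor gene, had 1 UMI in 1 of 26 members at 12 weeks and 12 UMIs in 7 of 28 at 1 week, and was present in 0.0624% and 0.164% of macrophages. Cd5, the classical surface marker of B-1a cells, had 1 UMI over all 54 members, and Spn, seen in 1 of 26 and 4 of 28 members, was also seen in 7.43% and 10.6% of macrophages.

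Some other genes of the follicular and B-1 lists, which did not set the states, are given here by state, and the rest are not. Lgals1, a galectin, stood at 332 CPM in the B-1 gene state and 100 CPM in members with neither at 12 weeks, and at 452 and 83.7 CPM at 1 week. Cd9, a tetraspanin of B-1 and marginal zone cells, stood at 332 and 0 CPM at 12 weeks and 165 and 60.8 at 1 week, and Bhlhe41, a regulator of B-1a maintenance, at 184 and 0 CPM and at 60.8 and 22.8. Bhlhe41 rested on 6 UMIs in 3 members at 12 weeks and 10 in 6 members at 1 week. In each library 4 of them lay in 1 member. Ccr7, a lymph node homing receptor, stood at 0 CPM in the B-1 gene state and 368 with neither at 12 weeks, and at 78.2 and 60.8 at 1 week. Ighd stood at 148 and 368 CPM at 12 weeks and at 78.2 and 38.0 at 1 week. Not every follicular gene was lower in the B-1 gene state at 12 weeks. Of the 23 Klf2 UMIs at 12 weeks, 8 and 6 lay in members of that state with 11680 and 5802 UMIs. Of the 38 Fcmr UMIs, 16 lay in the former. Of the outlying members, 1 was among the 13 cells of the B-1 gene state at 1 week and 3 among the 14 with neither. Without them the 1-week levels were 91.5 CPM in the B-1 gene state and 87.5 with neither for Ighd (9 and 5 UMIs), and 91.5 and 140 for Ccr7 (9 and 8 UMIs). Lgals1 then stood at 488 and 140 CPM, Cd9 at 173 and 87.5, and Bhlhe41 at 61.0 and 35.0. So the order of Ccr7 at 1 week turned when these members were left out, and Ighd then stood at nearly equal levels. These sums rest on 4 to 17 cells, and no test was run. In macrophages Cd9 was seen in 56.9% of barcodes in both libraries and Lgals1 in 28.0% and 35.1%.

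Genes of other B cell stages were mostly at few UMIs. Of 11 germinal centre and cycling genes 10 had 0 UMIs at 12 weeks and 6 at 1 week. A single 1-week member held 3 Mki67 and 5 Top2a UMIs. Of 9 genes of immature and transitional cells, Rag1, Rag2, Vpreb1, Igll1, Dntt and Myb had 0 UMIs in both libraries, Cd93 had 0 and 1, and Vpreb3 had 7 and 1. Cd24a, a surface protein that is high on immature B cells, was the one tested gene of that list. It had 225 and 168 CPM in B cells against 3.86 and 5.59 in macrophages, 5.30 higher on the log2 scale (SE 0.39, edgeR adjusted p = 1.26e-05). Of 8 marginal zone genes 2 were tested against macrophages and 1 of them, Mzb1, was higher, or 2 of 3 without the outlying members. Among those below the count filter with all members, Dtx1 had 13 UMIs at 12 weeks and 11 at 1 week in B cells against 0 and 7 in macrophages, and Cr2, the complement receptor CD21, had 1 and 2 against 2 and 2. Tbx21 of age-associated B cells was at 0, and Itgax and Zeb2 were lower in B cells than in macrophages (-3.97, SE 0.71, and -3.49, SE 0.57). Zeb2 was still seen in 1 of 26 members at 12 weeks (2 UMIs) and in 10 of 28 at 1 week (19 UMIs). Fcrl5, also counted with age-associated B cells, had 10 UMIs in 5 of 26 members and 10 UMIs in 7 of 28. Neutrophil markers were at 0 in all members. One 1-week member of 16122 UMIs, with 8 Ebf1 UMIs, stood out by 42 of the 45 Il1b UMIs of that library's B cells, 9 of its 18 Lyz2 UMIs and all 7 of its Klrd1 UMIs.

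Between the labels, with 1 library each and no test, genes with a large summed ratio of 12 weeks over 1 week in B cells included Gm10076, Ighd, Ptpn6 and Inpp5d. Gm10076 stood at 1348 CPM at 12 weeks and 136 at 1 week in B cells. Macrophages of the same libraries showed a step in the same direction, at 796 and 95.1 CPM. Without the 4 outlying members the 1-week levels in B cells were 163 CPM for Gm10076, 107 for Ptpn6 and 126 for Inpp5d. The phosphatase genes Ptpn6 (293 and 68.0 CPM) and Inpp5d (293 and 80.0), which restrain receptor signalling, had no such step in macrophages, at 75.6 and 78.4 CPM and at 85.3 and 93.0. The 5 with the smallest ratio were Jchain, Ins2, Iapp, Ins1 and Igkc, and most of their 1-week UMIs lay in the 4 outlying members. Without these, Hspa1a, Hspa1b, Hsph1, Il1b and S100a4 had the smallest ratio, of which Hspa1a, Hspa1b and Il1b lay mostly in 1 member each.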

How the data were processed

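Per the labels' protocols, sorted islet cells were run on the 10x Chromium 3' v3 kit. The deposited matrices hold raw UMI counts, made with Cell Ranger on mm10 per the submitters' processing notes. The file headers name software 3.1.0. The cell-calling settings are not stated in these sources.

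Barcodes needed 500 genes, 1000 UMIs and no more than 10% mitochondrial UMIs. No doublet caller was run. Counts were summed per library and class into 6 profiles and tested with edgeR 4.0.16 in R 4.3.3, using TMM scaling and filterByExpr, with library as the block and a threshold of 0.05 on the adjusted p. DESeq2 1.42.0 was an alternative. The code was tested on simulated data. CPM used each profile's raw total. Gene names came with the deposited counts, and positions from GENCODE vM21 by identifier.

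Members and gene lists were chosen with earlier results of these data known. Values in full were given for up to 4 genes per list (those with the highest and lowest called fold change, then the most UMIs), for the 12 highest and 8 lowest called genes against macrophages and 6 and 6 against T cells (each with at least 20 UMIs per library in the higher class), all immunoglobulin constant and state genes, and 5 and 5 genes by label ratio. Some genes that this rule or the lists name are not reported here. Genes named in the paragraphs on light chains, variable genes and single members were chosen after their values were seen. The 4 outlying members have over 10% insulin UMIs or at least 100 Jchain UMIs, limits set after seeing the data. Alternatives covered normalization, tool, filters, gates, the block and single libraries. Intervals and floors cover counting error only.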

Additional observations from a re-analysis of the deposited data

Results flagged for a closer look

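For 6 genes the difference between B cells and macrophages had opposite signs in the libraries, and the difference between the libraries was not tested. Ins2 stood at -3.07 at 12 weeks and 5.10 at 1 week on the log2 scale, Ins1 at -2.25 and 4.93, and Iapp at -2.92 and 4.96, with 1 insulin-high barcode among the 1-week members. Among the 12-week macrophages 1 barcode held 33276 of the 47557 Ins2 UMIs. Xbp1 stood at -2.22 at 12 weeks and 1.05 at 1 week, where the 3 Jchain-high members held 69 of its 83 UMIs. Klrd1, a natural killer cell receptor gene, stood at -2.66 and 3.92, with all 7 UMIs in 1 member. Cd5 stood at 1.16 and -2.03, from 1 UMI at 12 weeks and 0 at 1 week.

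Barcodes with B genes and a C1q sum of 10 or more, which the comparison counts as macrophages, numbered 3 at 12 weeks and 20 at 1 week. Among the 20, 2 had 180 and 94 Jchain UMIs with 2701 and 2157 Igkc UMIs, and 10 had 0 Igkc UMIs.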

How the results depend on the processing

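The count of genes higher in B cells than in macrophages (280 of 2938 tested) was 159 of 2938 with DESeq2. It was 108 of 1922 with strict cell filters (at least 1000 genes and 2000 UMIs, at most 5% mitochondrial UMIs). The count lower (603 of 2938) was 1045 of 17434 with no count filter. It was 1233 of 9843 with only the 2 classes in the fit and 384 of 1922 with strict filters. The number of genes tested moved with these settings, so a change in count is not a change in share. Against T cells the count higher was 27 of 2938. It was 48 of 17434 with no count filter and 42 of 2938 with no replicate block. A C1q sum below 2 gave 16 of 2793, and a B gene sum of at least 5 gave 46 of 2680. Without the 4 outlying members it was 41 of 2532, and without the insulin-high barcode 43 of 2777. The count lower (63 of 2938) was 98 of 2938 with no replicate block. It was 95 of 2680 with a B gene sum of at least 5 and 96 of 2777 without the insulin-high barcode. With no replicate block 366 and 665 genes differed from macrophages; classes of 1 library share a pool, so the block is their pairing. The causes were not tested. Leaving out a library left no residual degrees of freedom and gave values with no test.

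The 12-week B cell share was 0.391% with strict filters. The Fcer2a state at 12 weeks was 0% with strict filters or gates at 2 UMIs and 3.85% after thinning. The B-1 gene state was 3.85% at 12 weeks with gates at 2 UMIs, and 17.9% at 1 week after thinning.

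Signs turned for Xbp1 (-2.22 without the 4 members), Klrd1 (-2.66 without the 1-week library), and for Ins2 (-2.06, -2.01 and -2.07), Ins1 (-1.91, -1.81 and -1.87) and Iapp (-1.74, -1.69 and -1.68) with a B gene sum of at least 5, without the 4 members and without the insulin-high barcode. For Ins2, Ins1 and Iapp these settings changed the B cells and left the macrophage class as it was. Without 1 library Klrd1 ranged over -2.66 to 3.92. The settings without the 4 members, without the insulin-high barcode and with thinned states were added after seeing the data. Depth limits the states and any gene under about 3 UMIs per class.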
